A study of Mus musculus with 9 samples.

Results

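In mouse liver, 351 of the 14236 circRNA probes on the array (2.47%) were well detected on every array and higher in all 3 hepatic ischemia-reperfusion (I/R) livers than in every normal (N) and every ischemic postconditioning (IPO) liver. They made up 6.66% of the 5272 circRNA probes that were well above background on all 9 arrays. The 351 probes were chosen by the measured values themselves, after log2 transformation and quantile normalization. The lowest I/R value had to lie above the highest N and IPO value, and the mean of I/R had to be at least 1 log2 unit (a fold change of 2) above the means of both other groups. Their height in I/R is therefore the criterion of choice and is described without a test. The probes are identified by their numbers on the array, since the tables used here do not pair them with circRNA names, host genes or probe sequences.

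All 9 livers came from male C57BL/6 mice labelled as 8 weeks old, and each array held RNA of 1 liver. In the 3 N mice the abdomen was opened, but blood flow to the liver was not interrupted. The 3 I/R mice had 1 h of partial hepatic ischemia followed by 4 h of reperfusion. The 3 IPO mice were subjected to I/R with postconditioning, in which vessels were closed for 5 s and opened for 5 s, 3 times over, before full reperfusion. The 3 livers of each group had been drawn at random from the group. Total RNA was treated with RNase R before labelling with Cy3, in all groups alike.

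A circRNA arises when the spliceosome joins a downstream splice donor to an upstream splice acceptor of the same transcript, a reaction called backsplicing. The closed ring has no free end, so it withstands the exonuclease RNase R, and it tends to outlast the linear mRNA of its host gene. In the liver, interruption of blood flow starves hepatocytes of oxygen, and the return of blood adds oxidative and inflammatory injury. Postconditioning applies brief interruptions at the start of reperfusion and is studied as a way to limit that injury. Because whole liver tissue was measured, fewer cells of a type and less RNA per cell cannot be told apart in any of the levels below.

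The arrays were not equally good. Only 8088 circRNA probes on I/R 1 and 5489 on I/R 2 were well above background, against 12097 to 13207 on the other 7 arrays. The detection floor, taken as the lowest log2 value well above background, reached 5.27 on array I/R 2 and 4.22 on array I/R 1, against 1.30 on I/R 3 and 1.81 to 2.39 in N and IPO. According to the file headers, scan 1 held 6 arrays, namely all of N, the IPO arrays 1 and 2, and I/R 3 as the sole I/R array. Each of the other 3 arrays was scanned by itself. For I/R 1 and I/R 2, scan and group cannot be told apart. The demand for detection on all arrays was set mainly by I/R 2. Of 11519 probes well above background on all 6 N and IPO arrays, 6100 were not so on I/R 2 and could not be chosen.

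The signals of the members were, as the rule demands, lower in N and IPO than in I/R. The median of their mean log2 levels was 5.74 in N (quartiles 4.83 and 7.31), 7.15 in I/R (quartiles 6.23 and 8.78) and 5.68 in IPO (quartiles 4.78 and 7.21). Over all well-detected probes the corresponding medians were 6.70, 6.77 and 6.69. By array, the median over the 351 probes was 5.80, 5.79 and 5.72 in N, 7.19, 7.30 and 7.02 in I/R, and 5.74, 5.64 and 5.64 in IPO. The N and IPO arrays thus lay close to each other, and the I/R arrays lay more than 1 log2 unit above them. The full range of the set was wide. Mean levels in I/R ran from 4.59 to 14.73.

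The median difference between I/R and N was 1.34 on the log2 scale (quartiles 1.17 and 1.57), a fold change of 2.53, and that between I/R and IPO was 1.43 (quartiles 1.24 and 1.69), a fold change of 2.70. Both depended on the background correction. With normexp the rule found 101 members, while over the same 351 probes these medians were 0.82 and 0.85. Without I/R 3 the number of members was 847. All well-detected probes together stood 0.22 higher in I/R than in N and 0.25 higher than in IPO, so that the chosen probes exceeded that common shift by 1.12 and 1.18. Both conditions of the choice were common on their own. Among the 5262 well-detected probes with a value on all arrays, 812 (15.4%) had every I/R value above every N and IPO value. In 456 (8.67%) the mean of I/R was at least 1 above both means. The 351 chosen probes met both, which left out 461 that were separated by less than 1 log2 unit and 105 that differed by at least 1 but overlapped.

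The same rule with N as the raised group found 0 probes, and with IPO as the raised group it found 10. Turned round, so that every I/R value had to lie below all others by the same margin, it found 309 probes. These counts use the values of the rule and are a description. Quantile normalization sets the distributions of all arrays equal, so that rises of some probes are offset by falls of others.

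Most members stood only moderately above the other groups. The margin, which is the mean of I/R minus the higher of the means of N and IPO, had a median of 1.29. It was under 1.5 in 271 probes, from 1.5 to 2 in 65, and at least 2 in 15. The gap, which is the lowest I/R value minus the highest N or IPO value, had a median of 0.60. It reached at least 1 log2 unit in 52 probes and was under 0.1 in 22. Bright and dim members had similar margins in these values, a likeness that depended on the background correction. The median margin was 1.34 in the 62 probes with a mean I/R level below 6, 1.25 in the 171 between 6 and 8, 1.31 in the 77 between 8 and 10 and 1.33 in the 41 above 10. The median gap was 0.48, 0.61, 0.65 and 0.76 in these classes. The normexp correction used here adds an offset of 50 to every intensity before the log, which shrinks log2 differences most in dim probes. With it the margin of the dimmest member, ASCRP4001339, went from 1.51 to 0.37. That of the brightest, ASCRP4009097, went from 1.40 to 1.34.

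ASCRP4007889 had the largest margin and also the widest gap. Its log2 levels were 3.89, 4.27 and 5.48 in N, 7.99, 8.04 and 8.11 in I/R, and 4.95, 4.76 and 5.09 in IPO. The 3 I/R livers were nearly equal (8.05 ± 0.06, SD, n = 3), while the N livers were spread more widely (4.54 ± 0.83, SD, n = 3). The mean in I/R was 11.3-fold that in N and 8.67-fold that in IPO, and the gap was 2.51. The lesser of these folds was 3.69 after normexp background correction and 5.30 with the raw signal. Before normalization its processed intensities were 20.7, 19.3 and 61.1 in N, 107, 98.9 and 719 in I/R, and 35.7, 38.1 and 49.6 in IPO. Even on this scale each I/R liver was brighter than all N and IPO livers.

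ASCRP4002701 followed with a margin of 3.11 and a gap of 2.34. It measured 5.74, 5.58 and 5.25 in N, 8.09, 8.08 and 9.72 in I/R, and 5.34, 4.64 and 5.46 in IPO. I/R 3 was the highest liver by more than 1.5 log2 units, and its unnormalized intensity of 2575 compared with 117 and 102 in the other I/R livers. The mean in I/R was 8.61-fold that in N and 11.2-fold that in IPO, and the lesser fold was 4.43 with normexp.

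The probe next in order, ASCRP4005452, was a dim circRNA in the livers without raised levels. It measured 3.97, 4.07 and 3.51 in N, 6.30, 6.67 and 6.26 in I/R, and 4.50, 2.57 and 4.07 in IPO, with a margin of 2.56. IPO 2 was far below the other IPO livers, so that the IPO group had an SD of 1.02. ASCRP4004109 came after it, with 4.73, 4.86 and 5.20 in N, 8.32, 7.99 and 6.86 in I/R, and 5.27, 5.41 and 4.99 in IPO. Here I/R 3 was the lowest of the I/R livers, and the gap was 1.45.

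ASCRP4013748 measured 3.88, 3.91 and 3.60 in N, 6.49, 6.97 and 6.03 in I/R, and 4.34, 3.74 and 4.07 in IPO. ASCRP4009210 measured 4.39, 4.05 and 5.35 in N, 7.18, 6.67 and 7.62 in I/R, and 4.63, 4.48 and 5.11 in IPO. Both were raised more than 5-fold over each other group, by factors of 6.50 and 5.47 for the former and 5.91 and 5.34 for the latter. With normexp the lesser folds were 2.09 and 2.45. ASCRP4000511 was even among the I/R livers, at 6.51, 6.75 and 6.65, over 3.95, 3.70 and 4.48 in N and 3.99, 4.45 and 4.77 in IPO. Its gap of 1.74 was among the 5 widest, beside those of the 3 probes with the largest margins and of ASCRP4012406.

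ASCRP4012406 was similarly even. It measured 6.22, 6.32 and 6.16 in I/R (6.23 ± 0.08, SD, n = 3) against 4.14, 3.84 and 3.41 in N and 4.44, 4.20 and 3.76 in IPO, with a gap of 1.72. ASCRP4014224 had a similar margin (2.14) but a wider spread in I/R, at 6.79, 6.35 and 5.66, against 3.74 to 4.44 in N and 3.94 to 4.48 in IPO. ASCRP4008899 was the brighter of these, with 7.22, 7.02 and 6.69 in N, 9.62, 9.20 and 8.34 in I/R and 6.49, 6.22 and 6.41 in IPO. In this probe the IPO livers were all below the N livers, and the rise over IPO (6.42-fold) was larger than that over N (4.22-fold).

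The I/R livers were uneven in other probes with large margins. ASCRP4003340 measured 8.74, 9.19 and 11.55 in I/R, against 7.90, 7.44 and 7.54 in N and 7.72, 7.73 and 7.24 in IPO. I/R 3 stood far above the other I/R livers, which gave the largest I/R SD of all members (1.51, n = 3). ASCRP4003694 showed the opposite, with 6.42 and 6.37 on I/R 1 and I/R 2 but 4.36 on I/R 3, next to 4.26 on IPO 3. Its margin was 2.09 and its gap was 0.10, so the separation rested on I/R 1 and I/R 2. In 6 of the 12 probes with the largest margins, namely ASCRP4005452, ASCRP4013748, ASCRP4000511, ASCRP4014224, ASCRP4012406 and ASCRP4003694, all N and IPO values lay under 5.27, the detection floor of I/R 2. On the unlogged scale, normexp lowered the fold over the nearer group by more than 1.5 times in 10 of the 12. ASCRP4003340 and ASCRP4008899, with log2 margins of 1.93 and 1.71 after it, were the exceptions.

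The brightest member, ASCRP4009097, was among the stronger signals of the array. It measured 13.12, 13.52 and 13.35 in N, 15.15, 14.93 and 14.10 in I/R, and 12.85, 12.88 and 12.96 in IPO. The I/R livers were 2.64-fold above N and 3.56-fold above IPO in the mean, and no liver of I/R overlapped with the others. ASCRP4006634 had the same order of groups, with 12.35, 12.78 and 12.71 in N, 14.77, 14.77 and 13.58 in I/R and 12.18, 12.08 and 12.43 in IPO, and a rise of 3.38-fold and 4.40-fold. In both, I/R 3 was the lowest I/R liver and every IPO liver but the highest of ASCRP4006634 lay below every N liver.

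The members next in brightness, ASCRP4012979, ASCRP4006395 and ASCRP4004939, rose less than ASCRP4009097 and ASCRP4006634. ASCRP4012979 measured 12.33, 12.33 and 12.75 in N, 12.99, 13.95 and 13.84 in I/R, and 12.75, 12.35 and 12.62 in IPO, and was 2.18-fold and 2.03-fold higher in I/R. ASCRP4006395 measured 12.02, 12.24 and 12.12 in N, 13.12, 13.48 and 13.38 in I/R, and 12.09, 11.39 and 12.18 in IPO. ASCRP4004939 measured 11.85, 11.47 and 11.78 in N, 12.77, 12.77 and 13.55 in I/R, and 11.80, 11.72 and 11.65 in IPO. At these intensities all 9 arrays were far above their detection floors, and no member spot was saturated.

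At the dim end, too, the values of N and IPO lay below the floor of the weaker I/R arrays. The 5 dimmest members, ASCRP4001339, ASCRP4005071, ASCRP4002981, ASCRP4006076 and ASCRP4009191, had mean I/R levels between 4.59 and 4.96. In all 5, I/R 2 was the highest array, at 5.39, 5.62, 5.30, 5.55 and 5.52. For ASCRP4001339 the values were 2.75, 3.26 and 2.84 in N, 4.32, 5.39 and 4.07 in I/R, and 3.33, 3.01 and 2.90 in IPO. Its unnormalized intensities in N and IPO ran from 9.04 to 11.9. Array I/R 1 at 6.73 was dimmer than all of these, and array I/R 2 at 12.7 was slightly brighter.

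This applied to a sizeable share of the set. In 99 members (28.2%) all 6 N and IPO values were under 5.27, the floor of I/R 2, which held for 377 (7.16%) of all well-detected probes. A probe in this range that was well above background on I/R 2 had to read higher there than in N and IPO, and 26.3% of these 377 probes were members. By contrast, 186 members had all 6 N and IPO values above that floor. They were 4.57% of the 4074 well-detected probes of that kind, and the N and IPO values of the remaining 66 members lay on both sides. The 186 had a median margin of 1.26 and a median gap of 0.63, with a margin of at least 1.5 in 35 and of at least 2 in 4. When the well-detected probes were divided into 4 equal classes by their mean N and IPO level, 181 members fell in the lowest class (13.8% of its probes), then 64 (4.87%), 41 (3.12%) and 65 (4.94%) in the highest.

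Agreement among the I/R livers was closer in the members than elsewhere, as a rule that demands separation favours. The median SD over the 3 livers was 0.23 in N, 0.44 in I/R and 0.24 in IPO for the members, and 0.24, 0.64 and 0.28 for all well-detected probes. The range of the I/R values had a median of 0.82 and was below 0.5 in 88 members. The 5 most even were ASCRP4006838, ASCRP4009973, ASCRP4012095, ASCRP4006491 and ASCRP4009143. ASCRP4006838 measured 10.95, 10.96 and 10.92 in I/R, 9.99, 9.88 and 9.88 in N, and 9.91, 9.79 and 9.24 in IPO. ASCRP4006491 measured 9.13, 9.07 and 9.03 in I/R, 7.91, 7.56 and 7.08 in N, and 7.52, 7.35 and 7.32 in IPO. In both probes the I/R livers differed from each other by no more than 0.10, far less than the distance to the nearest other liver.

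ASCRP4012095 combined an even I/R group with a wide gap of 1.29, at 7.22, 7.17 and 7.12 in I/R against 5.83, 5.58 and 5.61 in N and 5.82, 5.27 and 4.98 in IPO. ASCRP4009143 was alike, at 6.33, 6.34 and 6.42 in I/R against 5.18, 4.78 and 4.55 in N and 5.06, 4.61 and 4.39 in IPO. ASCRP4009973, at 5.87, 5.83 and 5.91 in I/R, had its nearest other liver in IPO 1 at 5.42 and a gap of 0.40. The 3 least even members were ASCRP4003340, described above, ASCRP4012341 and ASCRP4009268. The latter pair measured 5.90, 6.98 and 4.38, and 7.01, 6.48 and 4.62, in I/R, with the third liver, I/R 3, lying within 0.3 of the highest N or IPO liver in both.

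I/R 3 was the lowest of the I/R livers in 189 members (53.8%) and the highest in 101 (28.8%). Over all well-detected probes it was lowest in 57.4% and highest in 35.3%. I/R 1 was lowest in 135 members and I/R 2 in 27. Livers I/R 1 and I/R 2 were closer to each other, with a median absolute difference of 0.31, than either was to I/R 3 (0.70 and 0.54). Taken as a single liver, I/R 2 lay at least 1 above the means of N and IPO in 326 members, I/R 1 did so in 260 and I/R 3 in 209. Over all well-detected probes the shares were 16.2%, 18.8% and 15.8%, and the condition chose on the mean of these values. All I/R livers did so in 113 members (32.2%), against 2.15% of the well-detected probes. In 51 members I/R 3 lay at least 1 log2 unit below both other I/R livers, and in 8 at least 1 above both.

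Within scan 1, the scan that held livers of all groups, only I/R 3 stands for I/R. The median of I/R 3 minus the mean of N was 1.21 over the members, and 1.27 against the 2 IPO arrays of that scan. Over all well-detected probes these medians were -0.08 and 0.01. The rule itself placed I/R 3 above the 5 N and IPO arrays of scan 1 in all 351 members, a position that 38.5% of the well-detected probes took. With a single I/R liver in the scan, no spread can be given for this difference.

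Each I/R liver was also read on probes chosen without it, with the same rule applied to the other 8 arrays. The N and IPO arrays entered both the choice and the reading. The choice thus favours probes with low N and IPO values, and the probes set beside them were not matched for that level. The shares below are therefore a description. Without I/R 2, 464 probes were chosen, and 427 of them (92.0%) lay above every N and IPO value on I/R 2, against 41.2% of all probes well detected on the other arrays. Their median on I/R 2 was 1.33 above the mean of N, against 0.18. Without I/R 1, 482 probes were chosen, and 367 (76.1%) lay above on I/R 1, against 45.9%. Here the median was 0.94 above N, against 0.29. Of the probes so chosen, 333 of 464 were well above background on I/R 2 and 445 of 482 on I/R 1, so that some of these readings lay below detection.

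On I/R 3 the share was lower. Of 847 probes chosen without it, 363 (42.9%) lay above every N and IPO value on I/R 3, against 37.9% of all probes well detected on the other arrays. Their median on I/R 3 was 0.15 above the mean of N, against -0.08 over all, while the median on the choosing I/R arrays was 1.37. The probes raised on the other I/R arrays, those with the high floors and scans of their own, were above all N and IPO values on I/R 3 in a minority of cases here, but in 55.1%, 55.3% and 51.2% after quantile normalization over the well-detected probes, with normexp background correction and with the raw signal (40.0%, 37.7% and 37.8% of all probes). The part of detection, scan and liver in this difference was not tested.

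Before normalization the I/R arrays differed widely in brightness. The median processed intensity of the members was 75.7, 52.9 and 71.7 in N, 58.3, 56.1 and 317 in I/R, and 60.3, 69.4 and 71.3 in IPO. The medians of I/R 1 and I/R 2 thus lay within the range of the N and IPO arrays, and that of I/R 3 lay far above it. All well-detected probes had medians of 134, 94.0 and 139 in N, 44.2, 38.9 and 237 in I/R, and 113, 142 and 146 in IPO. Relative to the latter median of the same array, the members stood at 0.565, 0.563 and 0.514 in N, 1.32, 1.44 and 1.34 in I/R, and 0.534, 0.490 and 0.490 in IPO. This ratio within each array was higher on each I/R array than on each N and IPO array, which the choice of the members on these arrays favours.

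In unnormalized intensity, I/R 3 was above every N and IPO array in 351 members, I/R 1 in 65 and I/R 2 in 50, against 63.9%, 2.17% and 1.24% of all well-detected probes. I/R 1 was below all N and IPO arrays in 107 members and I/R 2 in 112, whereas over all well-detected probes 79.9% and 87.2% were below. Most members were thus not raised on these 2 arrays in unnormalized intensity, and took a raised value there after normalization. All I/R arrays were above all others before normalization in 26 members. These included 7 of the 12 with the largest margins, namely ASCRP4007889, ASCRP4002701, ASCRP4005452, ASCRP4004109, ASCRP4013748, ASCRP4012406 and ASCRP4008899.

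The rule did not compare IPO with N, but it held all N and IPO values of a member below its I/R values, which favours closeness of the 2 groups. The counts below are read with that limit. At the fold change of at least 2 and unadjusted p-value below 0.05 of the study's methods, limma called 0 of the 351 members. Among all 12813 probes tested, 0.437% were called higher and 0.0859% lower in IPO. No member passed a Benjamini-Hochberg adjusted p of 0.05, nor did any other probe (0%), and the smallest adjusted p among the members was 1. At an unadjusted p below 0.05 without a minimum fold change, 1 member was lower and 1 was higher in IPO (0.285% each), against 0.242% and 0.624% of all probes. Of the well-detected probes, 0.722% had such a p in either direction. In a fit on N and IPO alone, 12 members (3.42%) had an unadjusted p below 0.05, with a smallest adjusted p of 0.882. There the share was 4.96% of all probes and 4.37% of the well-detected probes. In the fit of all 3 groups, the median standard error of the IPO minus N difference was 0.34 over the members. That fit shares 1 estimate of the spread, so the wider spread of the I/R arrays enters this error. Over the well-detected probes the median SD was 0.64 in I/R, 0.24 in N and 0.28 in IPO. A missed threshold does not show that IPO and N were equal.

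The difference between the means of IPO and N was within 0.5 log2 units in 329 (93.7%), against 88.5% of the well-detected probes, and its median was -0.07, against -0.02. The rule bounded these values, so their closeness is a description. The mean of IPO was below that of N in 213 members (60.7%; 52.4% of the well-detected probes) and above it in 138. Every IPO liver was below every N liver in 27 members (7.69%), against 5.87% of the well-detected probes. The reverse held in 10 members (2.85%), against 4.48%.

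The member with the largest decrease in IPO was ASCRP4000664, with 8.57, 9.20 and 9.41 in N and 8.27, 7.79 and 8.19 in IPO. It was the lower member at an unadjusted p below 0.05. The difference was -0.98 (SE 0.39, limma adjusted p = 1), and all IPO livers lay below all N livers. Its I/R values were 10.83, 10.11 and 9.64, so that it was 2.19-fold above N but 4.32-fold above IPO. The next in order were ASCRP4012448 (-0.89), ASCRP4004639 (-0.78), ASCRP4000662 (-0.76) and ASCRP4000209 (-0.72), none with an unadjusted p below 0.05. Of these, ASCRP4000662 was bright, at 10.68, 11.51 and 12.02 in N, 13.21, 13.28 and 12.24 in I/R and 10.61, 10.38 and 10.92 in IPO. Its N 3 came within 0.23 of I/R 3.

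In the other direction, ASCRP4010020 differed most between IPO and N, by 0.90 (SE 0.41, limma adjusted p = 1). It measured 5.39, 5.61 and 6.63 in N, 8.48, 8.29 and 7.77 in I/R, and 7.10, 6.27 and 6.96 in IPO, and N 3 lay within the range of IPO. ASCRP4005273 was the member with an unadjusted p below 0.05 in this direction (0.74, SE 0.33, limma adjusted p = 1). It measured 3.50, 4.29 and 4.36 in N, 6.71, 6.93 and 6.50 in I/R, and 4.99, 4.75 and 4.63 in IPO, with the 3 groups in separate ranges. ASCRP4009756 (0.70), ASCRP4005844 (0.61) and ASCRP4009555 (0.59) followed, with I/R values that lay 0.10, 0.17 and 0.65 above the nearest N or IPO liver.

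The limit of 1 log2 unit separates probes that hardly differ. Just inside were ASCRP4007634, with 6.51, 6.07 and 5.39 in I/R and a highest other value of 5.09, ASCRP4000346, with 6.75, 7.18 and 7.42 over 6.31, and ASCRP4013995, with 6.04, 5.93 and 5.97 over 5.41. Their margins were 1.00, 1.00 and 1.01. Just outside were ASCRP4004803 (9.22, 9.18 and 9.01 in I/R, over 8.42), ASCRP4011398 (5.47, 5.92 and 6.51, over 5.12) and ASCRP4000312 (5.82, 5.89 and 5.34, over 4.85). All had margins of 0.998, and they had gaps of 0.59, 0.36 and 0.49. Left out by the thinnest overlap were ASCRP4009300, where I/R 3 and N 3 both read 6.75 and the margin was 1.15, ASCRP4007917, where I/R 1 read 5.86 and N 1 read 5.87, and ASCRP4004495, where I/R 3 read 6.84 and N 3 read 6.85.

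Position on the array was not part of the rule. The array has 192 rows and 82 columns, and when it was divided into 4 equal fields, 27.9%, 21.9%, 23.4% and 26.8% of the members lay in the lower left, lower right, upper left and upper right. For the well-detected probes these shares were 25.9%, 24.7%, 24.2% and 25.2%. No member spot could carry an outlier flag, since flagged spots were set to missing and a member needed a value on every array.

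Of the 351 members, 98 met the rule under each of 5 other treatments of the intensities, given under the processing of the data. Normexp alone kept 99 of the 351, so that this choice was in effect the one made by normexp. With its offset of 50, normexp lowers the margins of dim probes most, so the choice favours bright members with large margins. The values of the 98 are therefore a description. These 98 were brighter, with a median mean I/R level of 9.35, and had a median margin of 1.44 and a median gap of 0.81. They held 9 of the 12 members with the largest margins. The exceptions were ASCRP4014224, ASCRP4012406 and ASCRP4003694, whose margins were 0.80, 0.89 and 0.79 after normexp background correction.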

How the data were processed

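The authors deposited, for each of 9 one-colour arrays (Arraystar mouse circRNA, 3 each of N, I/R and IPO), the scanner intensity of every spot from Agilent Feature Extraction 11.0.1.1, with a background-corrected intensity and flags. The values they normalized themselves were set aside. The background-corrected intensities of non-control spots were log2 transformed and quantile normalized over the 9 arrays with limma 3.58.1 in R 4.3.3, and outlier spots were set to missing. IPO and N were compared with lmFit and eBayes over the 12813 circRNA probes that passed as well above background on 3 or more arrays, with the 3 groups in 1 fit, and p-values were adjusted by the Benjamini-Hochberg method over all of them. The methods state a fold change of at least 2 and p below 0.05. With 3 livers per group, the number of arrays limits the precision.

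The members, the probes to be named and the comparisons were chosen with earlier results of these data known. Named are the members with the largest margins and widest gaps, the brightest and dimmest, the most and least even in I/R, those with the largest IPO minus N differences, and those nearest to the limits of the rule. Lists of host genes and cell type markers could not be applied without gene names, so the liver label was not checked against markers.

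The 5 other treatments were scaling by the 75th percentile, quantile normalization over the well-detected probes alone, the raw signal, normexp background correction (offset 50), and outlier spots kept. Other filters and limits, array weights, a fit on N and IPO alone, scan or replicate number as a block, scan 1 alone and leaving out each array were also tried. The rule and the fit were also run on simulated data. These had the spread of N and IPO in all groups, without the detection filter and without normalization. The wider spread and the high floors of the I/R arrays were thus not simulated.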

Additional observations from a re-analysis of the deposited data

How the results depend on the processing

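The number of members depended on the processing, since the rule has fixed limits. It was 101 after normexp background correction and 171 with the raw signal, of which 99 and 166 were among the 351. It was 816 without the filter on dim probes, 80 with a minimum difference of 1.5, 812 without a minimum, 1466 on the arrays of scan 1 alone, and 338 to 847 when each array was left out, the highest without I/R 3. The medians were read over the same 351 probes under each setting. That of I/R minus N was 1.496 with 75th percentile scaling, 0.82 with normexp, 1.04 with the raw signal and 1.18 within scan 1. That of I/R minus IPO was 1.29 with quantile normalization over the well-detected probes, 0.85 with normexp, 1.08 with the raw signal and 1.24 within scan 1. All well-detected probes stood between 0.10 and 0.31 higher in I/R than in N under the 5 other treatments of the intensities, and -0.07 within scan 1. In IPO vs N, 1 member was called with scan as a block (of 114 called among all probes), 2 with array weights (of 266) and 0 to 3 when each array was left out (3 of 242 without N 3, 2 of 50 without N 1, 1 of 73 without IPO 1 and 1 of 95 without IPO 2). With scan as a block, IPO 3, I/R 1 and I/R 2 were each fitted exactly, being scanned by themselves. That contrast thus rested on IPO 1 and IPO 2 against N. With the replicate block 0 members were called, also after adjustment. The replicate numbers did not pair the samples, as correlations of same-numbered deviations ran from -0.47 to 0.18 with 2 of 9 above 0.1. The share of probes raised on I/R 2 when chosen without it was 94.4% with quantile normalization over the well-detected probes, 97.9% with normexp and 96.7% with the raw signal. For I/R 3, where it was 42.9%, it was 55.1%, 55.3% and 51.2%, against 40.0%, 37.7% and 37.8% of all probes. The cause of these changes was not tested. The floors of I/R 1 and I/R 2 limit what can be read of dim probes.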
